A study of Mus musculus with 12 samples.

Results

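Interferon response genes are the genes that cells switch on when they sense interferon or viral RNA. The set described here holds 34 genes named by symbol, of the 35869 genes in the count table. It covers interferon signalling and transcription (Irf7, Irf9, Stat2, Usp18, Isg15), sensors of nucleic acids (Ddx58, Ifih1, Zbp1), the OAS family (Oas1a, Oas2, Oas3, Oasl2), the IFIT family (Ifit1, Ifit2, Ifit3) and antiviral effectors (Mx1, Mx2, Rsad2, Bst2, Ifitm3, Trim30a). It also covers inducible genes of other roles (Ifi44, Ifi27l2a, Rtp4, Xaf1, Parp14), inducible GTPases with an immunoproteasome subunit (Gbp2, Gbp3, Irgm1, Igtp, Iigp1, Psmb8) and Ly6 surface antigens (Ly6a, Ly6e). All 34 had a row, and all 34 were among the 19395 genes that passed the filter on low counts and were tested.

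The RNA came from bone marrow HSCs (haematopoietic stem cells) of mice, sorted into CD41pos and CD41neg fractions, CD41 being the integrin chain encoded by Itga2b. KO mice were MxCre1+/-,RUNX1f/f and WT mice were MxCre1-/-,RUNX1f/f, so both carried the floxed allele and only KO mice carried the recombinase. Every mouse, WT included, had received 4 polyIC injections and was studied 4 weeks post-injection, so that the comparisons below set genotypes and gates against each other after the same treatment. No group without polyIC was analysed here, and none of the values measures the response to polyIC itself. The 4 groups were CD41pos KO (replicates 1, 2 and 3), CD41pos WT (1, 3 and 4), CD41neg KO (1, 2 and 3) and CD41neg WT (2, 3 and 4), and values per library are given in that order of replicates. MxCre1 places the recombinase under the promoter of Mx1, itself an interferon response gene of this set, and that promoter is active in many cell types once interferon is present, not in blood cells alone. The labels give no age, sex or strain, no surface markers of the HSC gate other than CD41, and no statement on pooling. The p-values therefore rest on the spread among these libraries, part of which may be technical.

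Type I interferon binds the receptor chains encoded by Ifnar1 and Ifnar2, and the kinases bound to them phosphorylate STAT proteins, among them STAT2. With IRF9, STAT2 is part of the factor that binds the interferon-stimulated response element (ISRE) in front of most genes of the set, while interferon gamma acts through the gamma-activated site (GAS). Double-stranded RNA such as polyIC is read by TLR3 and by the cytoplasmic sensors encoded by Ifih1 and Ddx58, which induce interferon. In mice, an acute pulse of interferon brings resting HSCs into cycle, and HSCs are known to hold part of the response genes at a raised level without infection.

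In RefSeq promoters (GRCm38.p6, 250 bases before to 50 bases from the annotated start) 23 of the 34 genes had an entry. The ISRE core, GAAA, then any 2 bases, then GAAA again, searched on both strands, stood in 16 of the 23, which is 69.6%, against 3.99% of the 27025 genes with a promoter. The GAS motif TTCNNNGAA stood in 6 of 23 (26.1%), against 9.55% of genes, and the RUNX core, TGTGGT or TGCGGT, in 4 of 23 (17.4%), against 25.0% of genes. These matches are a description of letters and not of binding. The promoters of 5 genes follow, each from 150 bases before the start to 30 bases from it and read along the gene's own strand, with the ISRE cores in capitals. Trim30a rose in CD41pos KO libraries and Bst2 and Ifitm3 fell there, while Isg15 has 3 overlapping cores and Igtp stands for the GTPases that were highest in KO 2. They lie at chr7:104465164-104465343 on the minus strand (Trim30a), chr8:71537443-71537622 minus (Bst2), chr7:141010715-141010894 minus (Ifitm3), chr4:156200789-156200968 minus (Isg15) and chr11:58199406-58199585 plus (Igtp).
Trim30a: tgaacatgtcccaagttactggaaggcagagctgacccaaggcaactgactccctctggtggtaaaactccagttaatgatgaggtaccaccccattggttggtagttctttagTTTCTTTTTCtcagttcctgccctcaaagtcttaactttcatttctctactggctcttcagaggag
Bst2: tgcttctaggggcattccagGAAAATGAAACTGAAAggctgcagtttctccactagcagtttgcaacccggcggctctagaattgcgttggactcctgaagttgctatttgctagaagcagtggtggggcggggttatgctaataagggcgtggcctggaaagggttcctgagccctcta
Ifitm3: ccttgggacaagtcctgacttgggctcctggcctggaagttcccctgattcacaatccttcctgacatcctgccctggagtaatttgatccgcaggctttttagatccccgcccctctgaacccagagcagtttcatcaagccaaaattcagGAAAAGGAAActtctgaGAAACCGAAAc
Isg15: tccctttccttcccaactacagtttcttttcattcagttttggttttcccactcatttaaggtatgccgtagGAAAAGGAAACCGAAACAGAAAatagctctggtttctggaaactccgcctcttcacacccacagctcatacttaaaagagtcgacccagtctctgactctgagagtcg
Igtp: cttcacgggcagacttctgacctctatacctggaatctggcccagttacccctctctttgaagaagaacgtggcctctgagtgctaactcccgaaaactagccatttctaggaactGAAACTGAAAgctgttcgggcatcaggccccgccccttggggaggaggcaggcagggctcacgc

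The core begins 36 bases before the start in Trim30a, where it reads on the other strand, and 34 bases before it in Igtp. Bst2 has 2 overlapping cores that begin 130 and 124 bases before the start, and Isg15 has 3 that overlap between 78 and 66 bases before it. In Ifitm3 the cores begin 2 and 19 bases after the start base. Of the members that passed, Oas2, Mx2 and Ly6e had no promoter entry, so the core was searched only in Trim30a among those that rose and in Bst2 and Ifitm3 among those that fell.

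The set took between 0.201% and 0.316% of the counts of a library, whose totals ran from 44108035 to 58946457. On the TPM scale, which corrects for length and allows levels of different genes to be compared, Ifitm3 had the highest mean over the 12 libraries (1138 TPM), followed by Psmb8 (912 TPM), Bst2 (299.5 TPM), Igtp (194 TPM) and Ly6e (149 TPM). At the other end stood Mx2 (3.17 TPM), Mx1 (1.48 TPM) and Ifit3 (1.07 TPM). Neighbours at the top of this order overlapped over the libraries. Psmb8 ran from 728 to 1079.9 TPM, inside which the lowest Ifitm3 library (822.5 TPM) lay, and Bst2 (198 to 471 TPM) overlapped Igtp (97.8 to 452 TPM).

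Some libraries stood apart. CD41pos WT 1 and 4 and CD41neg WT 2 and 4 had 18.6 to 27.7 CPM of the immediate early gene Nr4a1, and the other 8 libraries had 237 to 396 CPM. The column headers number these 4 WT libraries 1, 5, 6 and 2, the WT 3 libraries 9 and 10, and the KO libraries from 13 to 22. Genotype thus runs with this number, whose meaning the labels do not give. The parts of genotype and of library order in the KO against WT differences cannot be told apart. CD41pos WT 3 was the lowest of its group for 24 of the 34 members, against 42.0% of all genes tested, and its markers of HSCs summed to the lowest value of all libraries (850.1 CPM). Xist, a marker of female cells, and the Y-linked Ddx3y differed between the genotypes. KO 2 had 318 CPM of Xist in CD41pos and 308 CPM in CD41neg cells with 0.161 and 0.155 CPM of Ddx3y, whereas KO 1 and KO 3 had at most 1.003 CPM of Xist with 83.4 to 103 CPM of Ddx3y. All 6 WT libraries had Xist (113 to 339 CPM), and 4 of them also had Ddx3y, at 11.2 (CD41pos WT 3), 22.5 (CD41pos WT 4), 19.4 (CD41neg WT 2) and 38.9 CPM (CD41neg WT 3), against 0.0355 CPM in CD41pos WT 1 and 0 counts in CD41neg WT 4. The label WT 4 thus had Ddx3y in 1 gate and not in the other. Xist and Ddx3y stood together in these 4 WT libraries, and whether a label stands for 1 mouse or a pool is not given. The part of sex in differences between the genotypes cannot be told apart in full, and with Ddx3y as a covariate 4 members passed in CD41pos cells, beside 15.9% of all genes, and 2 in CD41neg cells, beside 6.91%, the calls of Trim30a in CD41pos (adjusted p = 0.0642) and of Mx2 in CD41neg cells (adjusted p = 0.0523) having ended. All 10 HSC markers (Kit, Slamf1, Procr, Hlf, Mecom, Fgd5 and others) had counts in every library. Runx1 measured 270.4, 382 and 325 CPM in CD41pos KO libraries, against 159, 141 and 147 CPM in CD41pos WT libraries, and 171, 157 and 163 CPM in CD41neg KO libraries, against 84.0, 90.5 and 65.7 CPM in CD41neg WT libraries. Such a gene total does not read the deleted part alone and so checks nothing about the labels. 

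After polyIC, KO cells differed from WT cells in 6 of the 34 response genes. Oas2 rose in both gates, Trim30a rose in CD41pos cells and Mx2 rose in CD41neg cells. Ly6e fell in both gates, and Bst2 and Ifitm3 fell in CD41pos cells. In CD41pos cells this made 5 of 34 members (14.7%), beside 17.1% of all genes tested, and in CD41neg cells 3 of 34 (8.82%), beside 7.82% of all genes, so that the members' share of calls was close to the background in both. Levels are given in CPM, library totals being scaled by TMM. Changes are log2 fold changes ± SE, KO over WT, from edgeR's quasi-likelihood test, and a gene passed where its p-value, after Benjamini-Hochberg adjustment across the 19395 genes, was under 0.05.

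In CD41pos cells 21 of the 34 fold changes were positive with a median of 0.09, beside -0.08 for all genes. In CD41neg cells 26 were positive with a median of 0.39, beside -0.03 for all genes. The CD41pos median was -0.09 without both KO 2 libraries and -0.03 without both WT 3 libraries, but 0.47 with a term for the 4 WT libraries low in Nr4a1 and 0.89, with 27 of 34 positive, without them, and the CD41neg median stayed positive in every alternative, between 0.21 and 0.64. The 3 libraries of a group lay wholly above or below those of the other for 13 members in CD41pos cells (7 above, 6 below), beside 44.3% of all genes, and for 16 in CD41neg cells (14 above, 2 below), beside 35.5%. The counts of calls, and the share of all genes called with them, depended on the libraries. With a term for the 4 WT libraries low in Nr4a1, 9 members passed in CD41pos cells, beside 23.6% of all genes, and 4 in CD41neg cells, beside 8.68%. Without those 4, which leaves WT 3 alone in each gate and assumes that it varies like the KO libraries, 17 passed in CD41pos cells, beside 39.4%, and 3 in CD41neg cells, beside 8.72%. Without both WT 3 libraries 3 passed in CD41pos cells, beside 15.9%, and 8 in CD41neg cells, beside 20.5%. Without both KO 2 libraries 1 passed in CD41pos cells, beside 5.68%, and 0 in CD41neg cells, beside 2.10%.

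**Figure D1:**
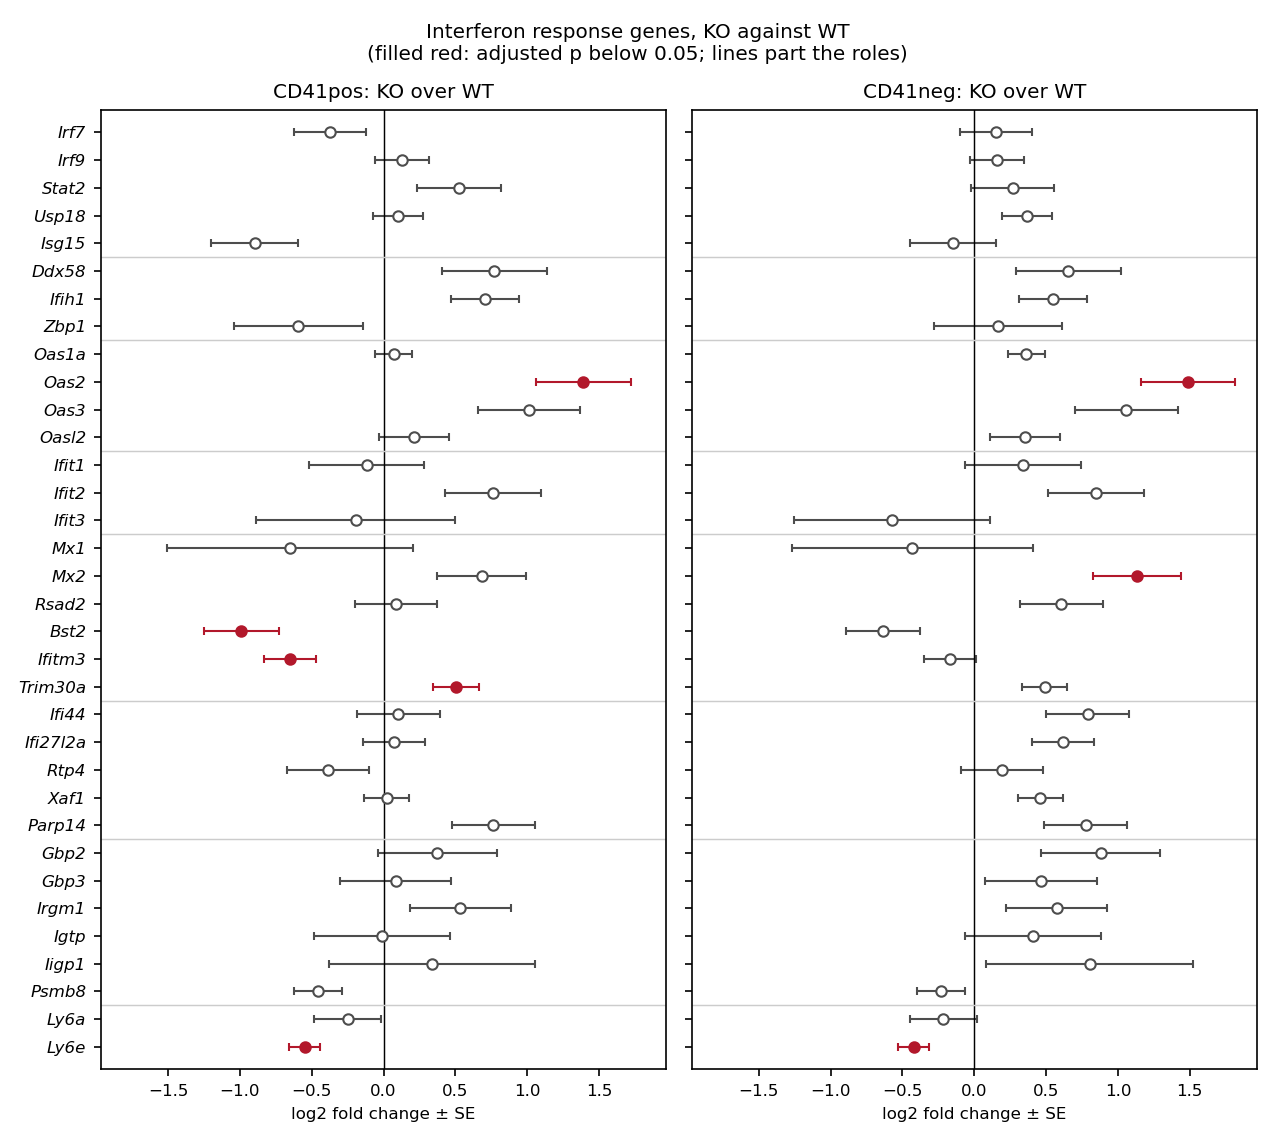
Log2 fold change ± SE of each of the 34 interferon response genes, KO over WT, in CD41pos (left) and CD41neg cells (right). Filled red points passed an adjusted p of 0.05: 5 in CD41pos and 3 in CD41neg cells, with Oas2 the farthest to the right in both.

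The OAS family, enzymes that make a second messenger on binding double-stranded RNA and so activate RNase L, had the member with the largest rise. Loci are given in mm10 (GRCm38) from the GENCODE vM21 annotation. Oas2 (chr5:120730333-120749853, minus strand) measured 18.2, 19.2 and 22.0 CPM in CD41pos KO libraries, against 8.35, 3.61 and 10.7 CPM in CD41pos WT libraries. It measured 37.1, 29.1 and 38.9 CPM in CD41neg KO libraries, against 11.8, 16.1 and 9.63 CPM in CD41neg WT libraries. In both gates every KO library lay above every WT library. Oas2 rose by a log2 fold change of 1.39 ± 0.33 (adjusted p = 0.0162) in CD41pos cells and of 1.49 ± 0.33 (adjusted p = 0.0215) in CD41neg cells. The CD41pos call ended without KO 2 or KO 3 (adjusted p 0.0523 and 0.0573), and the CD41neg call ended without CD41neg KO 1, KO 3, WT 2 or WT 4 (0.0551 to 0.0822). Without both KO 2 libraries the adjusted p was 0.0564 for the CD41pos and 0.0593 for the CD41neg comparison, and without both WT 3 libraries it was 0.00755 and 0.00141.

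Of the other members of that family, Oas3 had 33.6, 48.8 and 38.5 CPM in CD41pos KO libraries, against 25.4, 8.33 and 26.2 CPM in CD41pos WT libraries, and 49.7, 45.4 and 49.4 CPM in CD41neg KO libraries, against 31.9, 18.8 and 18.7 CPM in CD41neg WT libraries. Its groups did not overlap in either gate, yet its fold changes of 1.01 ± 0.36 (adjusted p = 0.0681) and 1.06 ± 0.36 (adjusted p = 0.0865) missed the threshold. Oas1a (chr5:120896256-120907521, minus strand) measured 50.2, 57.5 and 58.3 CPM in CD41pos KO libraries, against 50.4, 52.3 and 55.3 CPM in CD41pos WT libraries. In CD41neg cells it measured 53.4, 51.2 and 52.9 CPM in KO libraries, against 35.5, 47.0 and 40.04 CPM in WT libraries. The CD41pos groups overlapped (0.07 ± 0.13, adjusted p = 0.731), and the CD41neg groups did not (0.36 ± 0.13, adjusted p = 0.104), without passing the test. Reads of Oas1a may be split with its near copy Oas1g, so its level is uncertain. Oasl2, an OAS-like gene, ran from 33.6 to 78.7 CPM over all libraries, with fold changes of 0.21 in CD41pos and 0.35 in CD41neg cells that did not pass.

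No nucleic acid sensor passed. Ifih1, the sensor of long double-stranded RNA, had 46.9, 48.4 and 43.5 CPM in CD41pos KO libraries, against 29.1, 17.1 and 38.7 CPM in CD41pos WT libraries, a difference of 0.71 ± 0.24 (adjusted p = 0.0572) with no overlap. In CD41neg cells it had 44.4, 53.6 and 43.1 CPM in KO libraries, against 36.3, 29.8 and 30.3 CPM in WT libraries (0.55 ± 0.24, adjusted p = 0.162), again with no overlap. Ddx58, which encodes the sensor RIG-I, differed by 0.77 ± 0.37 (adjusted p = 0.153) in CD41pos and by 0.65 ± 0.37 (adjusted p = 0.279) in CD41neg cells. Zbp1, a sensor of Z-form nucleic acids, differed by -0.59 ± 0.45 (adjusted p = 0.363) and 0.16 ± 0.45 (adjusted p = 0.846), and its groups overlapped in both gates.

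Among the genes of interferon signalling and transcription none of 5 passed in either gate. Stat2 (chr10:128270559-128292849, plus strand), a subunit of the ISRE-binding factor, measured 63.4, 62.4 and 58.6 CPM in CD41pos KO libraries, against 43.4, 24.1 and 60.7 CPM in CD41pos WT libraries (0.52 ± 0.29, adjusted p = 0.215). In CD41neg cells Stat2 measured 67.1, 98.1 and 79.1 CPM in KO libraries, against 91.8, 53.4 and 57.7 CPM in WT libraries (0.27 ± 0.29, adjusted p = 0.591). Its groups overlapped in both gates, and CD41pos WT 3 was the lowest of the 12 libraries. Irf9 (chr14:55603571-55610030, plus strand), the DNA-binding subunit of that factor, measured 69.2, 84.0 and 72.0 CPM in CD41pos KO libraries, against 71.4, 48.01 and 86.6 CPM in CD41pos WT libraries (0.13 ± 0.19, adjusted p = 0.663). It measured 99.1, 128 and 101 CPM in CD41neg KO libraries, against 98.6, 92.6 and 102 CPM in CD41neg WT libraries (0.16 ± 0.19, adjusted p = 0.619). The Irf9 groups overlapped, with KO 2 the highest in each KO group. Irf7 (chr7:141262706-141266481, minus strand), the factor that amplifies type I interferon production, measured 19.8, 26.9 and 20.2 CPM in CD41pos KO libraries, against 29.3, 22.9 and 34.6 CPM in CD41pos WT libraries (-0.37 ± 0.25, adjusted p = 0.302). In CD41neg cells Irf7 measured 40.1, 57.6 and 36.9 CPM in KO libraries, against 44.7, 27.7 and 48.8 CPM in WT libraries (0.15 ± 0.25, adjusted p = 0.736). Both pairs of groups overlapped.

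Isg15 (chr4:156199424-156200818, minus strand), a ubiquitin-like protein joined to targets during the response, measured 5.03, 7.85 and 6.44 CPM in CD41pos KO libraries, against 10.4, 15.4 and 10.1 CPM in CD41pos WT libraries. In CD41neg cells Isg15 measured 6.86, 13.2 and 7.36 CPM in KO libraries, against 11.8, 7.63 and 11.0 CPM in WT libraries. The CD41pos KO libraries all lay below the WT libraries but missed the threshold (-0.90 ± 0.30, adjusted p = 0.0606), and the CD41neg groups overlapped (-0.15 ± 0.30, adjusted p = 0.794). Usp18, which removes ISG15 from its targets and damps the receptor, ran from 16.4 to 35.1 CPM over all libraries, with fold changes of 0.10 in CD41pos and 0.36 in CD41neg cells. The Usp18 groups overlapped in CD41pos cells, and in CD41neg cells the KO libraries lay above the WT libraries without passing.

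IFIT proteins bind foreign RNA and block its translation, and no IFIT gene passed. Ifit1 (chr19:34640871-34650009, plus strand) measured 8.03, 10.8 and 7.42 CPM in CD41pos KO libraries, against 11.3, 3.09 and 14.0 CPM in CD41pos WT libraries (-0.12 ± 0.40, adjusted p = 0.863). It measured 15.1, 15.0 and 17.0 CPM in CD41neg KO libraries, against 14.7, 11.8 and 10.6 CPM in CD41neg WT libraries (0.34 ± 0.40, adjusted p = 0.625). The CD41pos groups overlapped, with WT 3 far below WT 1 and WT 4, and in a fit without the 4 WT libraries low in Nr4a1, so with WT 3 alone, Ifit1 was higher in CD41pos KO (1.58, adjusted p = 0.00346). Ifit2 had 47.6, 53.5 and 43.2 CPM in CD41pos KO libraries, against 30.7, 13.6 and 40.9 CPM in CD41pos WT libraries, and 34.8, 36.1 and 32.6 CPM in CD41neg KO libraries, against 24.0, 21.5 and 12.03 CPM in CD41neg WT libraries. The Ifit2 groups did not overlap in either gate, while its differences of 0.76 ± 0.33 (adjusted p = 0.126) and 0.85 ± 0.34 (adjusted p = 0.134) missed the threshold. Ifit3, whose reads may be split with the near copy Ifit3b, did not exceed 5.09 CPM in any library.

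Of the antiviral effectors, 2 rose and 2 fell in at least 1 gate. Trim30a (chr7:104409025-104465193, minus strand), a TRIM protein that restrains signalling downstream of Toll-like receptors in mice, measured 58.8, 57.9 and 60.2 CPM in CD41pos KO libraries, against 42.6, 33.5 and 48.8 CPM in CD41pos WT libraries. In CD41neg cells Trim30a measured 64.1, 51.2 and 69.3 CPM in KO libraries, against 47.0, 43.5 and 41.0 CPM in WT libraries. KO libraries lay above WT libraries in both gates. Trim30a rose by 0.50 ± 0.16 (adjusted p = 0.0466) in CD41pos cells, and its CD41neg difference of 0.49 ± 0.16 (adjusted p = 0.0751) missed the threshold. The CD41pos call ended on leaving out any of 8 libraries (CD41pos KO 1, 2 and 3, WT 1 and 3, CD41neg KO 1 and 3 and WT 3, adjusted p 0.0571 to 0.123), and also without both KO 2 (0.1) or both WT 3 libraries (0.0882).

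Mx proteins are dynamin-like GTPases that block viral nucleoproteins. Mx2 (chr16:97535308-97560900, plus strand) is annotated as a polymorphic pseudogene, since some laboratory strains carry a broken copy. It measured 2.19, 1.65 and 1.58 CPM in CD41pos KO libraries, against 1.06, 0.976 and 1.33 CPM in CD41pos WT libraries. In CD41neg cells Mx2 measured 5.33, 3.47 and 4.25 CPM in KO libraries, against 1.81, 2.54 and 1.59 CPM in WT libraries. Levels were low, and KO libraries lay above WT libraries in both gates. Mx2 rose by 1.13 ± 0.31 (adjusted p = 0.0437) in CD41neg cells, and its CD41pos difference was 0.68 ± 0.31 (adjusted p = 0.135), which did not pass. The CD41neg call ended on leaving out any of 9 libraries (all but CD41pos WT 3 and 4 and CD41neg WT 3, adjusted p 0.0555 to 0.146), and without both KO 2 libraries (0.087). It also ended with the term for the 4 WT libraries low in Nr4a1 (1.03, adjusted p = 0.0962) and without them (0.77, adjusted p = 0.253).

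Mx1 (chr16:97447035-97462907, minus strand), whose promoter drives the recombinase, measured 0.438, 1.17 and 0.351 CPM in CD41pos KO libraries, against 1.61, 0.114 and 1.33 CPM in CD41pos WT libraries. It measured 1.55, 0.585 and 2.01 CPM in CD41neg KO libraries, against 2.92, 0.4995 and 2.15 CPM in CD41neg WT libraries. The groups overlapped at 2.92 CPM or below, with WT 3 the lowest WT library in each gate, and the differences of -0.65 ± 0.86 (adjusted p = 0.622) and -0.43 ± 0.84 (adjusted p = 0.783) did not pass. Rsad2, which encodes viperin, ran from 9.26 to 24.5 CPM over all libraries with fold changes of 0.09 in CD41pos and 0.61 in CD41neg cells, neither past the threshold.

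Bst2 (chr8:71534255-71537456, minus strand), which encodes tetherin, the membrane protein that holds budding virions, measured 45.4, 56.7 and 51.0 CPM in CD41pos KO libraries, against 79.5, 152 and 72.5 CPM in CD41pos WT libraries. In CD41neg cells Bst2 measured 47.9, 71.5 and 49.7 CPM in KO libraries, against 80.8, 79.2 and 103 CPM in WT libraries. KO libraries lay below WT libraries in both gates, and CD41pos WT 3 was far above the rest. Bst2 fell, with a log2 fold change of -0.99 ± 0.26 (adjusted p = 0.0247) in CD41pos cells, and its CD41neg difference of -0.64 ± 0.26 (adjusted p = 0.144) did not pass. The call ended without CD41pos KO 1, KO 2, KO 3 or WT 3 (adjusted p 0.0647 to 0.0843), and without both KO 2 (-1.07, adjusted p = 0.0597) or both WT 3 libraries (-0.55, adjusted p = 0.0656).

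Ifitm3 (chr7:141009586-141010770, minus strand), a membrane protein that blocks viral entry, measured 189.6, 254 and 209 CPM in CD41pos KO libraries, against 283, 454 and 287 CPM in CD41pos WT libraries. It measured 169, 194 and 170.2 CPM in CD41neg KO libraries, against 186, 223 and 191 CPM in CD41neg WT libraries. The groups were apart in CD41pos cells and overlapped in CD41neg cells. Ifitm3 fell in CD41pos cells (-0.65 ± 0.18, adjusted p = 0.0303), and its CD41neg difference was -0.17 ± 0.18 (adjusted p = 0.581). That call also ended without CD41pos KO 1, KO 2, KO 3 or WT 3 (adjusted p 0.0502 to 0.107), and without both KO 2 (-0.78, adjusted p = 0.0559) or both WT 3 libraries (-0.37, adjusted p = 0.0646).

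Both Ly6 antigens are surface proteins held by a lipid anchor, and Ly6a encodes Sca-1, by which mouse HSCs are commonly sorted. Ly6e (chr15:74955051-74959905, plus strand) measured 506, 488 and 489.8 CPM in CD41pos KO libraries, against 659, 819 and 693 CPM in CD41pos WT libraries. In CD41neg cells Ly6e measured 528, 473 and 498 CPM in KO libraries, against 688, 601 and 716 CPM in WT libraries. Every KO library lay below every WT library of its gate. Ly6e fell in both gates, with log2 fold changes of -0.55 ± 0.11 (adjusted p = 0.00814) in CD41pos cells and of -0.42 ± 0.11 (adjusted p = 0.0376) in CD41neg cells. The CD41pos call held on leaving out any single library (highest adjusted p = 0.0429, without KO 2), without both KO 2 libraries and without both WT 3 libraries, whereas the CD41neg call ended on leaving out any of 8 libraries (each KO library of both gates and CD41neg WT 2 and 4, adjusted p 0.0586 to 0.12). The CD41neg call of Ly6e also ended without both KO 2 libraries (-0.38, adjusted p = 0.158), with the term for the 4 WT libraries low in Nr4a1 (-0.44, adjusted p = 0.0572) and without them (-0.27, adjusted p = 0.08). Ly6a (chr15:74994877-74998031, minus strand) measured 47.5, 50.7 and 53.4 CPM in CD41pos KO libraries, against 55.2, 58.8 and 66.5 CPM in CD41pos WT libraries (-0.25 ± 0.23, adjusted p = 0.468). It measured 105, 71.5 and 106 CPM in CD41neg KO libraries, against 149, 69.4 and 110.0 CPM in CD41neg WT libraries (-0.22 ± 0.23, adjusted p = 0.588). The Ly6a groups were apart in CD41pos cells, with KO below WT, and overlapped in CD41neg cells, and neither difference passed.

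**Figure D2:**
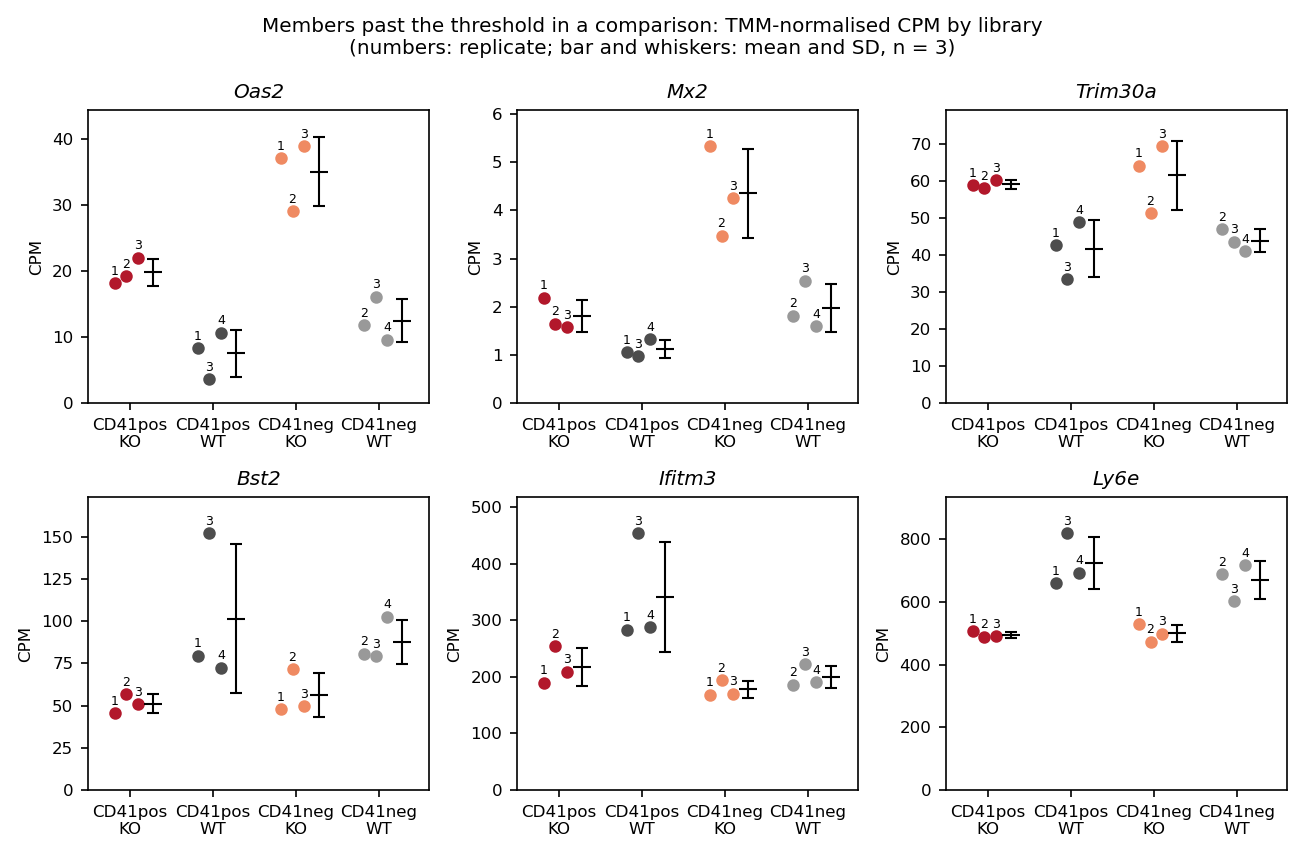
TMM-normalised CPM of the 6 members that passed the threshold in a comparison, by library. Points are libraries with their replicate number, bars and whiskers the mean ± SD (n = 3), and groups run from CD41pos KO to CD41neg WT. Oas2, Mx2 and Trim30a lie above WT in KO libraries of both gates, and Bst2 and Ly6e lie below it.

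Markers of some other blood cells were lower in KO libraries, as were the genes that fell, and others were not. The summed level of 10 neutrophil markers was 1524 to 3526 CPM in CD41pos KO libraries, against 3952 to 5267 CPM in CD41pos WT libraries, and 370.3 to 1036 CPM in CD41neg KO libraries, against 1816 to 2632 CPM in CD41neg WT libraries. Of these 10, 9 had counts in every CD41pos KO library and all 10 in every library of the other groups. For 14 monocyte, macrophage and dendritic cell markers the sums were 234 to 365 CPM in CD41pos KO libraries, against 479 to 544 CPM in CD41pos WT libraries, and 129.8 to 439.9 CPM in CD41neg KO libraries, against 249.6 to 434 CPM in CD41neg WT libraries. The T and NK cell markers, 11 of 12 with a row, summed to 87.2 to 148 CPM in CD41pos KO libraries, against 237 to 308 CPM in CD41pos WT libraries, and overlapped in CD41neg cells, at 54.3 to 107 CPM in KO libraries, against 89.4 to 156 CPM in WT libraries. Plasmacytoid dendritic cell markers, of cells that make much interferon, summed to 128 to 148 CPM in CD41pos KO libraries, against 147 to 166 CPM in CD41pos WT libraries, and to 87.4 to 165 CPM in CD41neg KO libraries, against 119.9 to 156 CPM in CD41neg WT libraries, so that both pairs of groups overlapped. Of these 8 markers Klk1 was at 0 in every library of CD41pos KO, CD41neg KO and CD41neg WT. Erythroid markers overlapped in CD41pos cells, at 754 to 1058 CPM in KO libraries, against 909.96 to 1916 CPM in WT libraries, and were lower in CD41neg KO, at 1986 to 2280.1 CPM, against 2727 to 3454 CPM in CD41neg WT libraries. Basophil and mast cell markers were lower in CD41pos KO (651 to 675 CPM, against 908 to 1240 CPM in WT) and overlapped in CD41neg cells. Endothelial and stromal markers overlapped in CD41pos cells and were lower in CD41neg KO (129 to 157 CPM, against 333 to 994 CPM in WT). HSC markers were higher in CD41pos KO (1965 to 2066 CPM, against 850 to 1881 CPM in WT) and overlapped in CD41neg cells. Fewer cells of a type and less RNA per cell cannot be told apart in such libraries, and the part of these cells in the lower Bst2, Ifitm3 and Ly6e was not tested.

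Of the 5 inducible genes of other roles none passed in either gate. In CD41neg cells all 5 fold changes were positive (0.19 to 0.79). Ifi44 had 27.8, 24.1 and 25.7 CPM in CD41neg KO libraries, against 18.7, 14.6 and 11.5 CPM in CD41neg WT libraries (0.79 ± 0.29, adjusted p = 0.108), and Xaf1, an antagonist of an inhibitor of cell death, had 25.5, 27.5 and 24.9 CPM in CD41neg KO libraries, against 19.1, 18.9 and 18.6 CPM in CD41neg WT libraries (0.46 ± 0.16, adjusted p = 0.0904). The groups of both genes were apart in that gate. In CD41pos cells Parp14, an ADP-ribosyltransferase, differed by 0.76 ± 0.29 (adjusted p = 0.0845), and Ifi44, Ifi27l2a, Rtp4 and Xaf1 by -0.39 to 0.10. Reads of Rtp4 overlap another transcript over 13.9% of its exon bases.

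The 5 inducible GTPases, which act on membranes of vacuoles that hold pathogens, stood out in KO 2 and in CD41pos WT 3. These genes did not separate the genotypes. In both gates KO 2 was the highest of the 3 KO libraries for each of the 5. CD41pos WT 3 was the lowest of its group for each of the 5 (median log2 ratio to the other CD41pos WT libraries -0.78). The same library was lowest for 11 of 11 further GTPases of the same families (-1.20), beside 42.0% of all genes. CD41neg WT 3 was the lowest of its group for 0 of the 5 and for 2 of the 11. Irgm1 measured 102, 174 and 97.1 CPM in CD41pos KO libraries, against 83.6, 59.2 and 115 CPM in CD41pos WT libraries, and 122, 312 and 142 CPM in CD41neg KO libraries, against 143, 135 and 109.6 CPM in CD41neg WT libraries. Igtp measured 70.4, 183 and 73.1 CPM in CD41pos KO libraries, against 96.6, 83.2 and 149 CPM in CD41pos WT libraries, and 76.3, 275 and 100.4 CPM in CD41neg KO libraries, against 145, 105 and 90.4 CPM in CD41neg WT libraries. Iigp1 measured 20.0, 106 and 29.7 CPM in CD41pos KO libraries, against 37.2, 19.1 and 66.7 CPM in CD41pos WT libraries, and 42.9, 199 and 55.5 CPM in CD41neg KO libraries, against 88.8, 55.0 and 26.7 CPM in CD41neg WT libraries. The KO and WT groups overlapped for each of the 3, and KO 1 and KO 3 lay below or among the WT libraries. Gbp2 differed by 0.37 ± 0.41 (adjusted p = 0.553) in CD41pos and by 0.88 ± 0.42 (adjusted p = 0.203) in CD41neg cells, and Gbp3, Irgm1, Igtp and Iigp1 by -0.01 to 0.53 in CD41pos and by 0.41 to 0.80 in CD41neg cells, none past the threshold. Reads of Igtp overlap the neighbouring GTPase gene Irgm2 over 8.01% of its exon bases.

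Over the 5 GTPases the median log2 ratio of KO 2 to the mean of KO 1 and KO 3 was 0.82 in CD41pos and 1.44 in CD41neg cells. KO 2 was also the highest KO library for 10 of 11 further GTPases of the same families and for 18 of 18 genes of antigen processing and MHC class I in each gate, beside 35.0% of all genes in CD41pos and 40.9% in CD41neg cells. The other 29 members were mixed. KO 2 was the highest for 19 of them and the lowest for 3 in CD41pos cells, but the highest for 14 and the lowest for 15 in CD41neg cells. Among the 29, Zbp1, Irf7, Irf9, Isg15, Usp18, Ifih1 and Psmb8 had KO 2 as the highest KO library in both gates. Zbp1 measured 5.18, 16.2 and 6.71 CPM in CD41pos KO libraries and 13.9, 31.0 and 14.6 CPM in CD41neg KO libraries. Irf1, a factor induced by interferon gamma, measured 94.7, 205 and 102 CPM in CD41pos KO libraries and 148, 249.8 and 151 CPM in CD41neg KO libraries, and KO 2 was the highest in both gates. Ifng itself had 0 counts in CD41pos KO 2 and 2 in CD41neg KO 2, and the T and NK cell markers were lowest in KO 2 of each KO group (87.2 and 54.3 CPM). That was not particular to T and NK cells. The neutrophil (1524 and 370 CPM), monocyte, macrophage and dendritic cell, B and plasma cell, and plasmacytoid dendritic cell markers were also lowest there. The erythroid, basophil and mast cell, and endothelial and stromal markers were not lowest in KO 2 in both gates. Libraries of sorted cells do not read interferon gamma made elsewhere in the animal, and its part in the KO 2 levels was not tested. KO 2 also differs from KO 1 and KO 3 in Xist and Ddx3y. Its HSC markers summed to 1441 CPM in CD41neg cells, against 2175 and 2105 CPM in KO 1 and KO 3. Procr measured 17.0 CPM there, against 73.3 and 73.0 CPM, while Slamf1 was higher (92.5 CPM, against 62.6 and 66.0 CPM). In CD41pos cells the sums were 1965 CPM, against 2066 and 2052 CPM. The part of sex, of the make-up of the sorted cells or of the animal or pool behind the label cannot be told apart. Psmb8, an immunoproteasome subunit, differed between genotypes by -0.46 ± 0.17 (adjusted p = 0.077) in CD41pos cells, with KO libraries below WT libraries, and by -0.23 ± 0.17 (adjusted p = 0.409) in CD41neg cells, without passing. Over 14.7% of its exon bases it overlaps an antisense transcript, which this unstranded kit does not separate.

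**Figure D3:**
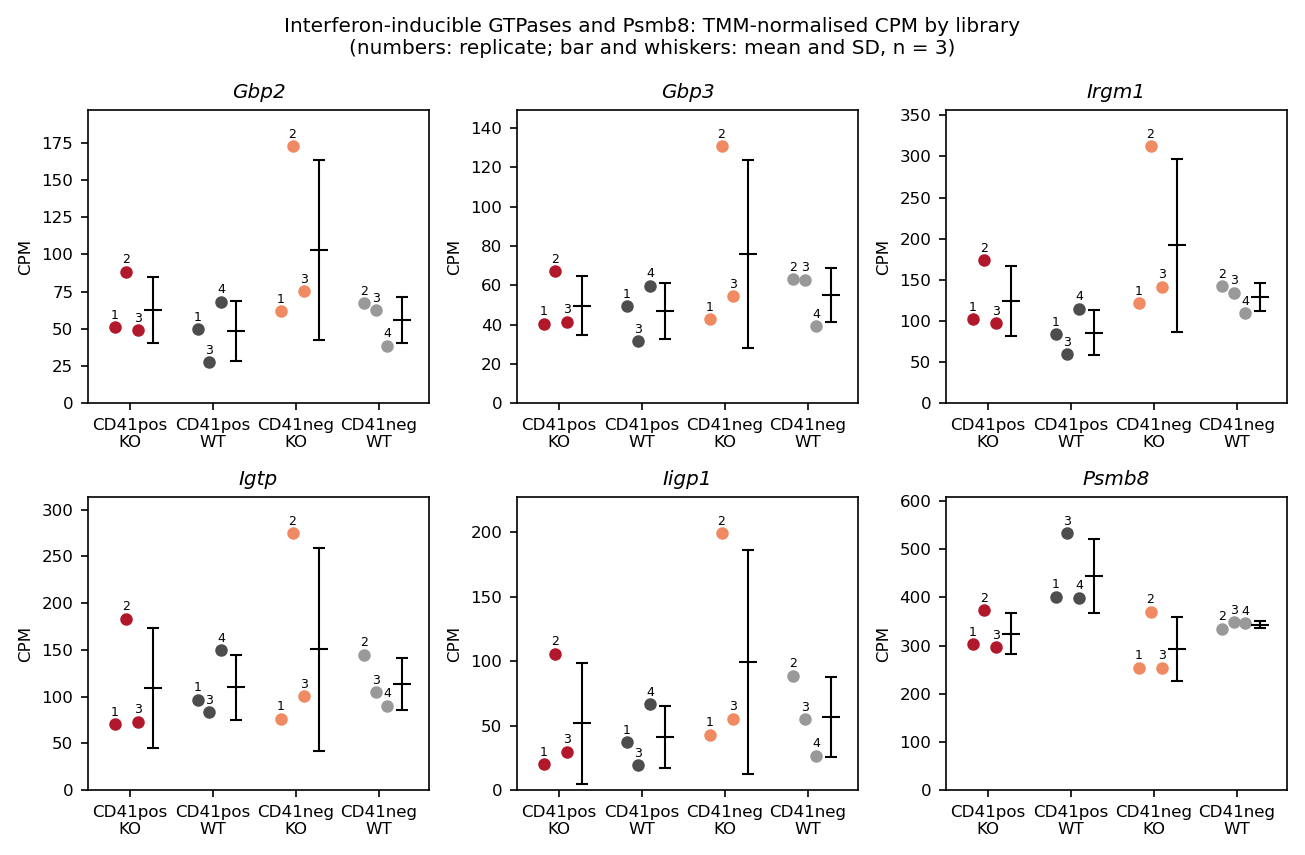
TMM-normalised CPM of the 5 inducible GTPases and of the immunoproteasome gene Psmb8, by library. Points are libraries with their replicate number, bars and whiskers the mean ± SD (n = 3), and groups run from CD41pos KO to CD41neg WT. KO 2 is the highest KO library in each panel, in both gates.

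The effect of genotype was not shown to differ between the gates for any member. In the test of the interaction 0 of 34 passed, as did 0% of all genes, with 0 members at an unadjusted p under 0.05 (1093 of all genes) and 0 members called by DESeq2 (1 at an unadjusted p under 0.05). The smallest adjusted p of a member was 0.894. Differences of the KO effect, CD41pos minus CD41neg, ran from -0.76 (Zbp1) to 0.38 (Ifit3), and 29 of the 34 were negative. Without the 4 WT libraries low in Nr4a1, so with WT 3 alone in each gate, 4 members (11.8%) passed (Ddx58, Ifih1, Oas2 and Ifit2), each with a positive difference, beside 17.9% of all genes, and 23 of the 34 differences were positive.

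CD41pos cells were then set against CD41neg cells of the same genotype. Within KO, 1 of the 34 passed, Mx2, which fell, beside 2.79% of all genes, and within WT, 1 passed, Ifitm3, which rose, beside 5.59%. In KO, 5 of the 34 fold changes were positive with a median of -0.44, beside -0.02 for all genes, and 10 members had all CD41pos libraries below all CD41neg libraries and 1 above, beside 29.9% of all genes that did not overlap. In WT, 11 were positive with a median of -0.21 (0.04 without CD41pos WT 3), beside 0.01 for all genes, and 4 members lay below and 5 above, beside 22.8%. These comparisons share their libraries with those of genotype. The KO labels pair libraries across the gates, and with the animal label as a block 0 members passed in KO, beside 0.804% of all genes. That fit also paired WT 3 and WT 4, whose labels did not pair the gates. A call lost in it can therefore not be laid to the KO pairing alone. The call of Mx2 also ended without both KO 2 libraries (-1.35, adjusted p = 0.201). Without both WT 3 libraries 7 passed in KO (Irf7, Irf9, Oas2, Ifit1, Mx2, Rtp4 and Ly6a, all lower in CD41pos cells), beside 6.23% of all genes, and 3 in WT (Oas1a and Ifitm3 higher, Ly6a lower), beside 6.47%.

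Mx2 measured 2.19, 1.65 and 1.58 CPM in CD41pos KO libraries, against 5.33, 3.47 and 4.25 CPM in CD41neg KO libraries, and 1.06, 0.976 and 1.33 CPM in CD41pos WT libraries, against 1.81, 2.54 and 1.59 CPM in CD41neg WT libraries. The CD41pos libraries lay below the CD41neg ones in each genotype. Mx2 fell in KO (-1.27 ± 0.31, adjusted p = 0.0494), and its difference in WT was -0.82 ± 0.31 (adjusted p = 0.147), short of the threshold. The KO call ended with the animal label as a block (-1.26 ± 0.33, adjusted p = 0.164). It also ended on leaving out any of 9 libraries (all but CD41pos WT 3 and CD41neg WT 3 and 4, adjusted p 0.0527 to 0.212).

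Ifitm3 measured 189.6, 254 and 209 CPM in CD41pos KO libraries, against 169, 194 and 170.2 CPM in CD41neg KO libraries (0.29 ± 0.18, adjusted p = 0.574), and 283, 454 and 287 CPM in CD41pos WT libraries, against 186, 223 and 191 CPM in CD41neg WT libraries. The WT gates were apart and the KO gates overlapped. Ifitm3 rose in CD41pos WT cells by 0.77 ± 0.18 (adjusted p = 0.0295), a call that ended without CD41pos KO 3, CD41neg WT 2 or CD41neg WT 4 (adjusted p 0.0514 to 0.0935). The neutrophil markers were higher in the CD41pos gate of both genotypes. They summed to 3952 to 5267 CPM in CD41pos WT libraries, against 1816 to 2632 CPM in CD41neg WT libraries. In KO, where the Ifitm3 gates overlapped, the sums were 1524 to 3526 CPM in CD41pos libraries, against 370.3 to 1036 CPM in CD41neg libraries. The part of neutrophil cells in the level of Ifitm3 was not tested.

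Ly6a came close in both genotypes. It measured 47.5, 50.7 and 53.4 CPM in CD41pos KO libraries, against 105, 71.5 and 106 CPM in CD41neg KO libraries (-0.90 ± 0.24, adjusted p = 0.0662). In WT it measured 55.2, 58.8 and 66.5 CPM in CD41pos libraries, against 149, 69.4 and 110.0 CPM in CD41neg libraries (-0.86 ± 0.23, adjusted p = 0.0524). All CD41pos libraries lay below all CD41neg libraries of their genotype. Without CD41neg WT 3 both differences passed (-0.90, adjusted p = 0.0203 in KO, and -1.10, adjusted p = 0.0109 in WT). Leaving out CD41neg KO 2 had the same effect (adjusted p = 0.0457 in KO and 0.0405 in WT), and without CD41neg WT 2 the KO difference passed (adjusted p = 0.0384).

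Irf7 measured 19.8, 26.9 and 20.2 CPM in CD41pos KO libraries, against 40.1, 57.6 and 36.9 CPM in CD41neg KO libraries, with no overlap (-1.01 ± 0.25, adjusted p = 0.0553). In WT it measured 29.3, 22.9 and 34.6 CPM in CD41pos libraries, against 44.7, 27.7 and 48.8 CPM in CD41neg libraries, with overlap (-0.48 ± 0.25, adjusted p = 0.292). The KO difference passed without CD41pos WT 3 (adjusted p = 0.0345) or CD41neg WT 3 (0.034). It missed the threshold with the animal label as a block (-0.99 ± 0.16, adjusted p = 0.0537). Irf9 differed by -0.54 ± 0.19 (adjusted p = 0.186) in KO and by -0.51 ± 0.19 (adjusted p = 0.138) in WT, with CD41pos libraries below CD41neg libraries in both. The gate differences of Stat2 were -0.41 ± 0.29 (adjusted p = 0.665) in KO and -0.66 ± 0.29 (adjusted p = 0.21) in WT, and those of Isg15 were -0.50 ± 0.30 (adjusted p = 0.553) and 0.25 ± 0.30 (adjusted p = 0.688).

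Oas2 differed by -0.82 ± 0.32 (adjusted p = 0.26) in KO, with CD41pos libraries below CD41neg libraries, and by -0.73 ± 0.33 (adjusted p = 0.217) in WT, with overlap. Oas1a differed by 0.08 ± 0.13 (adjusted p = 0.913) in KO and by 0.37 ± 0.13 (adjusted p = 0.12) in WT. Ifit1 differed by -0.84 ± 0.40 (adjusted p = 0.398) in KO and by -0.39 ± 0.40 (adjusted p = 0.626) in WT, and Mx1 by -1.08 ± 0.86 (adjusted p = 0.716) and -0.86 ± 0.85 (adjusted p = 0.604). Bst2, Ly6e and Trim30a differed between the gates by -0.14, -0.01 and -0.06 in KO and by 0.21, 0.11 and -0.08 in WT, each with overlapping libraries. Of the remaining members Ifit2 alone had CD41pos KO libraries above CD41neg KO libraries (0.48 ± 0.33, adjusted p = 0.648), and Ifi44, Rtp4 and Xaf1 had them below (-0.74, -0.97 and -0.32), none of them past the threshold.

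**Figure D4:**
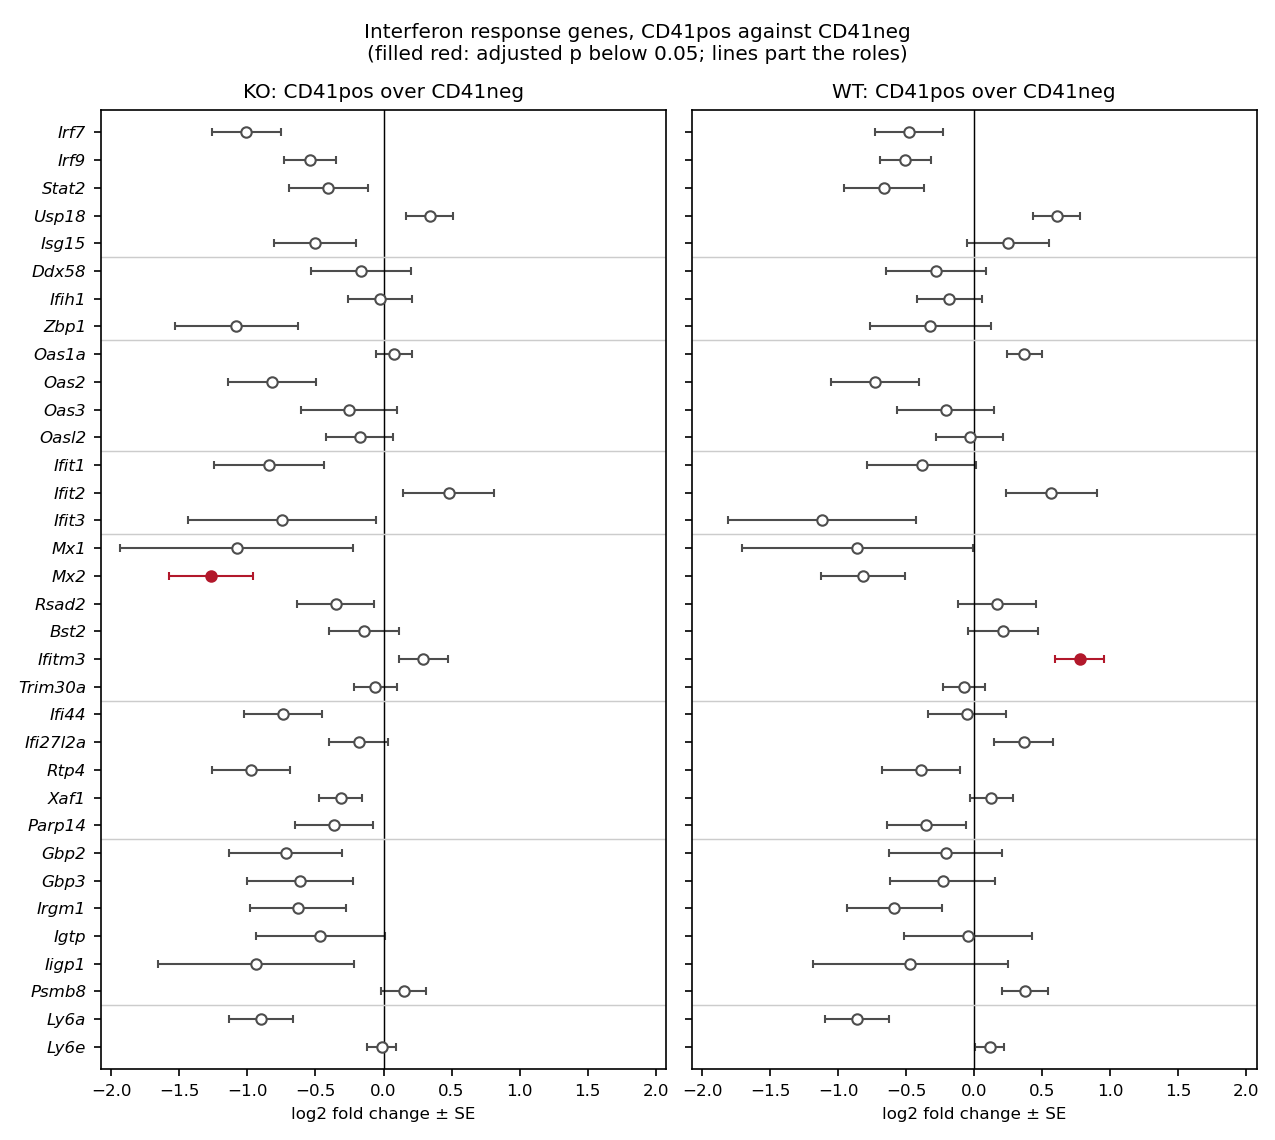
Log2 fold change ± SE of each of the 34 interferon response genes, CD41pos over CD41neg, in KO (left) and WT (right). Filled red points passed an adjusted p of 0.05, which was Mx2 alone in KO and Ifitm3 alone in WT.

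Upstream of the set lie the receptors, kinases and STATs. Calls in this list and the lists that follow stand beside 17.1% of all genes called in CD41pos KO against WT and 7.82% in CD41neg. Between the gates the shares were 5.59% in WT and 2.79% in KO. Of 9 such genes, 1 rose in CD41pos KO cells, Jak2 (1.11 ± 0.29, adjusted p = 0.0232), a kinase of the interferon gamma receptor and of many cytokine receptors. In CD41neg KO cells 1 rose, Ifnar2 (0.38 ± 0.09, adjusted p = 0.0319), a chain of the type I interferon receptor, at 122, 129 and 121 CPM in KO libraries, against 96.5, 92.7 and 97.3 CPM in WT libraries. The median fold change of the 9 was 0.59 between genotypes in CD41pos cells, beside -0.08 for all genes, and 0.54 in CD41neg cells, beside -0.03. CD41pos WT 3 was the lowest of its group for Jak2 (82.4, 40.3 and 105.9 CPM) and Ifnar1 (69.3, 26.3 and 71.8 CPM). For Ifnar2 and Ifngr2 it was the highest. These medians were not taken again without that library or with exon length taken into account. Of 9 interferon regulatory factors and their binding partners outside the set, 3 fell in CD41pos KO cells and 2 in CD41neg KO cells. Irf8, a factor of myeloid and dendritic cell fate, measured 38.0, 34.1 and 34.4 CPM in CD41pos KO libraries, against 81.0, 64.0 and 65.2 CPM in CD41pos WT libraries, and 21.6, 17.7 and 19.1 CPM in CD41neg KO libraries, against 52.1, 37.5 and 30.5 CPM in CD41neg WT libraries. The Irf8 groups did not overlap, and Irf8 fell with log2 fold changes of -0.98 ± 0.19 (adjusted p = 0.00752) in CD41pos cells and -1.04 ± 0.19 (adjusted p = 0.0101) in CD41neg cells. Irf4, a factor of lymphocytes and plasma cells, fell as well (-1.57 ± 0.43, adjusted p = 0.029 in CD41pos cells and -3.01 ± 0.43, adjusted p = 0.00368 in CD41neg cells), as did Irf2bp1 in CD41pos cells (-0.65 ± 0.16, adjusted p = 0.0181). The 10 B and plasma cell markers summed to 64.9 to 115.7 CPM in CD41pos KO libraries, against 162 to 654 CPM in CD41pos WT libraries, and to 112 to 237 CPM in CD41neg KO libraries, against 368 to 3082 CPM in CD41neg WT libraries, with 8 to 10 of the 10 counted in every library of a group, and their part in the level of Irf4 was not tested.

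Of 8 inhibitors of interferon signalling 1 rose in CD41pos KO cells, Trim24 (0.68 ± 0.19, adjusted p = 0.0298), and none passed in CD41neg KO cells. Of 14 genes that sense double-stranded RNA or DNA or relay the signal, Tmem173, which encodes the adaptor STING, fell in CD41pos KO cells (-1.54 ± 0.44, adjusted p = 0.0326), and Mb21d1, which encodes the DNA sensor cGAS, rose in CD41neg KO cells (0.81 ± 0.21, adjusted p = 0.04). Of 53 further interferon-stimulated genes with a row, 4 rose and 2 fell in CD41pos KO cells, beside 17.1% of all genes called. In CD41neg KO cells 3 of them rose and 0 fell, beside 7.82% of all genes. Herc6, the ligase that joins ISG15 to proteins in mice, rose in both gates (0.57 ± 0.16, adjusted p = 0.0289 in CD41pos cells and 0.66 ± 0.16, adjusted p = 0.0289 in CD41neg cells). Mndal, of the family of interferon-inducible DNA-binding proteins, did too (0.57 ± 0.18, adjusted p = 0.0467 and 0.72 ± 0.18, adjusted p = 0.0332). Ifitm1, of the same family as Ifitm3, fell in CD41pos KO cells (-1.30 ± 0.29, adjusted p = 0.0132), as did Parp10 (-0.74 ± 0.21, adjusted p = 0.0316), while Slfn2, which keeps T cells at rest in mice, rose (1.03 ± 0.27, adjusted p = 0.0249). Ifi203 rose in CD41neg KO cells (1.02 ± 0.20, adjusted p = 0.0145). None of 11 further inducible GTPases passed in any comparison, and of 18 genes of antigen processing and MHC class I only Tap2, a subunit of the peptide transporter, passed, falling in CD41pos KO cells (-0.61 ± 0.13, adjusted p = 0.0103).

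Of the CD41pos calls in these lists, those of Irf8 and Tap2 held on leaving out any single library, and each of the others (Jak2, Irf4, Irf2bp1, Trim24, Tmem173, Mndal, Herc6, Parp10, Parp12, Ifitm1 and Slfn2) ended without CD41pos KO 2, at an adjusted p of 0.0635 (Ifitm1) to 0.172 (Mndal). Of the CD41neg calls, those of Irf4 and Irf8 held (Irf8 had an adjusted p of 0.0602 without both KO 2 libraries), and each of the others (Ifnar2, Mb21d1, Ifi203, Mndal and Herc6) ended without CD41neg KO 1, KO 3 or WT 4, at an adjusted p of up to 0.125 (Mb21d1). With a term for the 4 WT libraries low in Nr4a1 the CD41pos calls of Irf4, Tmem173, Slfn2, Parp10, Parp12, Herc6 and Mndal and the CD41neg calls of Ifnar2, Mb21d1, Mndal and Herc6 ended (adjusted p 0.0551, Ifnar2, to 0.181, Parp10), and without those libraries the CD41pos calls of Irf4, Tmem173, Slfn2, Parp10 and Tap2 and the CD41neg calls of Mb21d1, Ifi203, Mndal and Herc6 did (0.0683, Tap2, to 0.468, Parp10). Without both KO 2 libraries the CD41pos calls of Jak2, Irf4, Irf2bp1, Trim24, Mndal, Herc6, Parp10 and Parp12 and the CD41neg calls of Ifnar2, Irf8, Mb21d1, Mndal and Herc6 ended (0.0602, Irf8, to 0.179, Mndal), and without both WT 3 libraries the CD41pos calls of Tmem173, Mndal, Herc6, Parp12 and Slfn2 did (0.0532, Herc6, to 0.0959, Mndal). With an offset for exon length Trim24 and, in both gates, Herc6 no longer passed, and Mb21d1 had no length.

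Interferon genes themselves were all but silent. The 18 listed genes summed to between 0 and 62 counts per library, and Ifng alone passed the filter, with 0 to 50 counts. Ifng passed the test in no comparison.

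Between the gates, Irf4 fell and Irf8 rose in CD41pos cells of KO (-1.78 ± 0.43, adjusted p = 0.0495 and 0.87 ± 0.19, adjusted p = 0.03) and of WT (-3.22 ± 0.44, adjusted p = 0.00203 and 0.81 ± 0.19, adjusted p = 0.0289). Oasl1, an OAS-like inhibitor of Irf7 translation in mice, measured 8.28, 9.50 and 7.92 CPM in CD41pos KO libraries, against 22.7, 26.7 and 17.4 CPM in CD41neg KO libraries, and 12.1, 9.26 and 10.6 CPM in CD41pos WT libraries, against 21.9, 15.4 and 24.1 CPM in CD41neg WT libraries. Its gates did not overlap in either genotype, and it fell in CD41pos cells of KO (-1.38 ± 0.22, adjusted p = 0.00577) and of WT (-0.94 ± 0.22, adjusted p = 0.0295). In KO Slfn2 rose (1.28 ± 0.27, adjusted p = 0.0267) and Ifit1bl1, an IFIT-like gene, fell (-1.98 ± 0.45, adjusted p = 0.0372). In WT Socs1, an inhibitor of Janus kinases, rose (0.89 ± 0.21, adjusted p = 0.0331), as did Mb21d1 (0.88 ± 0.21, adjusted p = 0.033) and Oas1g (0.75 ± 0.19, adjusted p = 0.041), while Ifngr1, a chain of the interferon gamma receptor, fell (-0.82 ± 0.15, adjusted p = 0.00973) and so did Trim25 (-0.48 ± 0.12, adjusted p = 0.0402). With the animal label as a block the KO calls of Irf4, Irf8, Slfn2 and Ifit1bl1 ended (adjusted p = 0.0738, 0.0622, 0.106 and 0.186). That of Oasl1 remained (adjusted p = 0.0426), though not without both KO 2 libraries (adjusted p = 0.0686). Without CD41pos KO 2 the same 4 KO calls ended (adjusted p 0.0949 to 0.2), and without CD41neg WT 4 the WT calls of Irf8, Socs1, Trim25, Mb21d1, Oasl1 and Oas1g ended (0.0754 to 0.102). Without the 4 WT libraries low in Nr4a1 the WT calls of Trim25, Mb21d1, Oasl1 and Oas1g ended (0.119, Oasl1, to 0.338, Mb21d1), without both KO 2 libraries those of Irf8, Socs1, Trim25 and Oas1g (0.0502, Socs1, to 0.0679, Trim25), and without both WT 3 libraries those of Irf8, Socs1 and Oas1g (0.0669, Oas1g, to 0.114, Socs1). With the offset for exon length the WT calls of Trim25 and Oas1g ended too (adjusted p = 0.0782 and 0.0705).

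Changes ran with transcript length, for the response genes and for genes at large. Sorted by merged exon length into 5 bins of equal size, the genes tested had median log2 fold changes, KO over WT in CD41pos cells, of -0.41 in the shortest bin and 0.31 in the longest, and in CD41neg cells of -0.18 and 0.24. All 14 members of at least 4000 exon bases had positive fold changes in both gates (medians 0.51 and 0.59), and of the 7 members under 2000 bases 2 did in each (medians -0.25 and -0.17). These limits were chosen after the values were seen. Across the 34 members Spearman's rho between exon length and fold change was 0.70 for the CD41pos and 0.48 for the CD41neg comparison, beside 0.31 and 0.22 over the 16693 genes with a length, as a description of genes that share their libraries. CD41pos WT 3 deviated from the mean of all libraries by 0.50 (log2) for genes of the shortest bin and by -0.37 for those of the longest, the widest span of any library.

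With an offset per library for exon length, an alternative added after the values were seen, 4 members passed in CD41pos and 4 in CD41neg cells. That is 11.8% of members in each gate, beside 16.45% of the genes with a length in CD41pos and 8.57% in CD41neg cells. Ifitm3 no longer passed in CD41pos KO against WT (-0.21, adjusted p = 0.305) or in CD41pos WT against CD41neg WT (0.44, adjusted p = 0.0689), nor Ly6e in CD41neg cells (-0.37, adjusted p = 0.0543). Bst2 still passed at a smaller size (-0.53, adjusted p = 0.0462), and Oas2 (1.38 in CD41pos and 1.49 in CD41neg cells), Trim30a and CD41pos Ly6e kept their calls. In CD41neg cells Oas1a (0.52, adjusted p = 0.0494) and Trim30a (0.51, adjusted p = 0.0427) then passed as higher in KO.

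**Figure D5:**
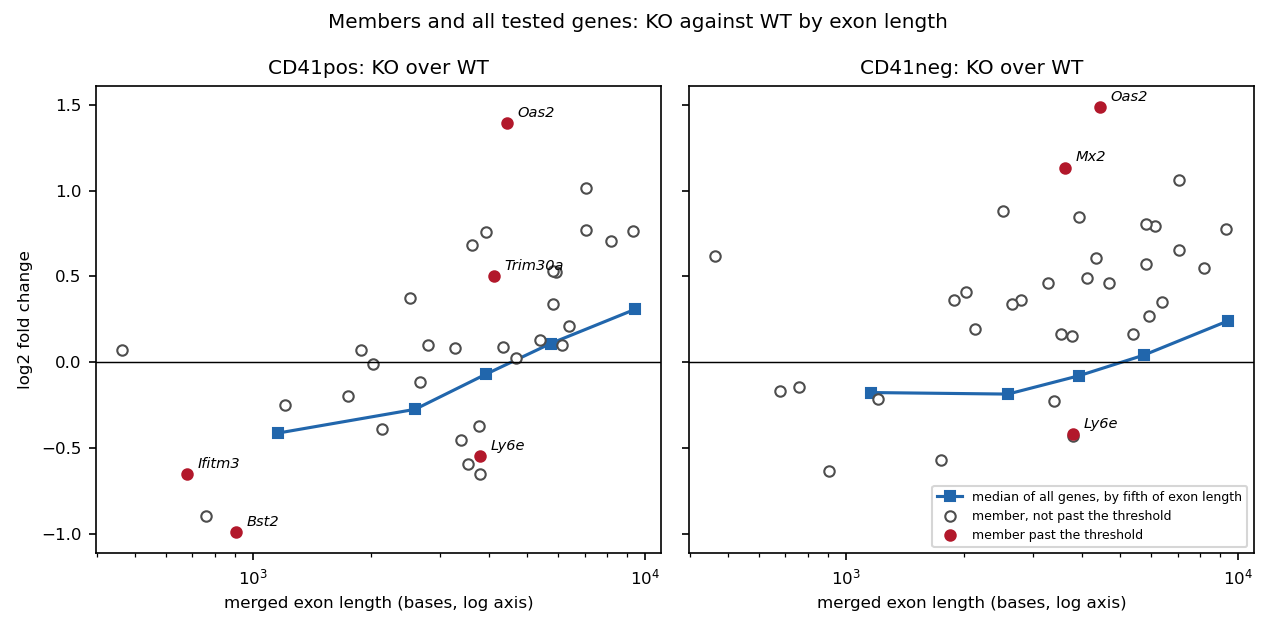
Log2 fold change, KO over WT, against merged exon length in bases (log axis) for the 34 members, in CD41pos (left) and CD41neg cells (right). Filled red circles passed the threshold, open circles did not, and blue squares are medians of all genes tested in 5 bins of length, which run from -0.41 to 0.31 in CD41pos and from -0.18 to 0.24 in CD41neg cells from the shortest to the longest bin.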

How the data were processed

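Gene expression was measured by RNA-seq in 12 libraries of sorted mouse HSCs, 3 in each of 4 groups, made per the labels' protocols with a Qiagen miRNeasy Micro kit and SMART-Seq v4 Ultra Low Input, which does not mark strand. The authors deposited a table of read counts per gene and a table of TPM values; per the submitters' processing notes the tools were STAR 2.6.1e, featureCounts 1.6.2, FastQC 0.11.7 and cutadapt 1.9.1, and the genome build was mm10. No source used here gives their parameters, and how reads shared by near copies were counted is unknown. In the symbol column 27 genes had been turned into dates and were renamed, none of them a member.

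The deposited counts (44108035 to 58946457 per library) were scaled by TMM and fitted with edgeR 4.0.16 in R 4.3.3, in 1 quasi-likelihood model over the 4 groups with 5 comparisons, after a filter on low counts (filterByExpr, minimum count 10) that left 19395 of 35869 genes. Tests were two-sided, with Benjamini-Hochberg adjustment across the 19395 genes. The deposited TPM values served to order genes by level and, with limma 3.58.1, as an alternative. At this depth 3 counts, the limit that a count of 0 allows, correspond to 0.0509 to 0.068 CPM, which covers counting error only.

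The 34 genes and the lists of pathway and marker genes were chosen with earlier results of these data known. Genes were given in full where a member passed the threshold or belongs to the core of the pathway (Irf7, Irf9, Stat2, Isg15, Mx1, Ifit1, Oas1a and Ly6a), and at most 4 genes per pathway list and comparison were chosen by smallest adjusted p. Mndal and Parp12 in CD41pos cells were named beyond that rule, after their values were seen. No pair of replicates held identical values or differed by sampling noise alone (chi-square per degree of freedom of 14.5 or more). Deviations of KO libraries with the same number correlated across the gates (0.43, 0.61 and 0.47 for KO 1, 2 and 3 over 11386 genes), so KO numbers pair the gates. Those of WT did not (0.10 for WT 3 and -0.48 for WT 4). Exon lengths and loci came from GENCODE vM21 (GRCm38), with a length for 86.1% of the genes tested and for all 34 members, and promoters from RefSeq GRCm38.p6. Alternatives were DESeq2 1.42.0 and its size factors, other filters, TPM with pseudocounts of 1 and 0.1, fits of only the groups compared, replicate blocks, terms for the 4 WT libraries low in Nr4a1 or for Ddx3y, and leaving out libraries.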

Additional observations from a re-analysis of the deposited data

How the results depend on the processing

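Counts of members that passed are given in the order CD41pos KO against WT, CD41neg KO against WT, CD41pos against CD41neg within WT, the same within KO, and interaction, and were 5, 3, 1, 1 and 0. They were 9, 8, 3, 4 and 0 with DESeq2, 5, 3, 2, 0 and 0 with its size factors, 5, 1, 2, 2 and 0 with no filter, and 6, 3, 3, 2 and 0 with at least 1 CPM in 3 libraries. With only the groups compared they were 2, 2, 0 and 9. On log2(TPM + 1) they were 3, 3, 1, 1 and 0, and on log2(TPM + 0.1), where the median of all genes moved to 0.11 in CD41pos and 0.12 in CD41neg KO against WT, 3, 2, 1, 0 and 0. With the replicate number as a block they were 0, 0, 1, 1 and 0, and with the animal label as a block, for the gates and the interaction, 0, 0 and 0. A term for the 4 WT libraries low in Nr4a1 gave 9, 4, 2, 4 and 0, leaving them out gave 17, 3, 11, 9 and 4, and a Ddx3y covariate gave 4, 2, 1, 2 and 0. Settings added after the values were seen gave 1, 0, 1, 0 and 0 (without both KO 2 libraries), 3, 8, 3, 7 and 0 (without both WT 3 libraries) and 4, 4, 1, 2 and 0 (exon length offset). On leaving out each library in turn the ranges were 1 to 9, 0 to 12, 0 to 2, 0 to 6 and 0 to 0. The share of all genes called moved too. For the genotype comparisons in CD41pos and CD41neg cells it was 26.1% and 16.0% with DESeq2 (12.5% and 6.81% for the gates in WT and KO), 8.74% and 4.24% with no filter, 24.7% and 10.6% with at least 1 CPM, 10.2% and 6.99% with only the groups compared (7.67% for the gates in KO), 12.6% and 6.42% on log2(TPM + 1), 4.93% and 2.36% with the number as a block, and 39.4% and 8.72% without the 4 WT libraries (24.8% for the gates in WT, 17.9% for the interaction). It was 16.8% and 7.83% with the DESeq2 size factors, and 10.8% and 5.55% on log2(TPM + 0.1). With the animal label as a block it was 0.217% for the gates in WT and 0.804% in KO. On leaving out each library in turn it ran from 5.21% to 22.0% in CD41pos and from 1.89% to 19.9% in CD41neg cells. The cause of these shifts was not tested.

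Directions turned for 5 values, each in the fit without the 4 WT libraries. They were Ifit1 (1.58) and Rtp4 (0.63) in CD41pos KO against WT, Ifit2 in CD41pos against CD41neg WT (-0.73), and the interactions of Oas2 (1.42) and Ifit2 (1.22). Of the other single-gene values, not counting the 3 settings added later, 3780 stayed on their side of the threshold, 106 came to pass and 87 no longer passed, and a sign change of a value that passed in neither fit counts as unchanged here. The call of Ly6e in CD41pos cells held in 25 of 26 alternatives, that of Oas2 in 22 in CD41pos and 19 in CD41neg cells, and that of Bst2 in 18. Those of Ifitm3 (15), Trim30a (10), Mx2 in CD41neg (10) and Ly6e in CD41neg cells (9) were less stable. With 3 libraries a group, low genes such as Mx1 and Ifit3 (SE 0.84 or more for Mx1 between genotypes) allow no firm statement.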
